A study of Mus musculus with 18 samples.

Results

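The epidermal differentiation complex is a run of genes on mouse chromosome 3 that encode the structural proteins of the outer epidermis and hair follicle. Its members were taken by name: protein-coding genes whose symbols start with Sprr, Lce or S100a, without S100a8 and S100a9, and Lor, Flg, Flg2, Ivl, Hrnr, Rptn, Crnn, Tchh and Tchhl1. This gave 57 of 35150 genes, and all 57 were present in the expression table. They comprised 21 late cornified envelope (LCE) genes, 15 small proline-rich (SPRR) genes, 12 S100A genes, 7 fused-type genes and the single precursors Lor and Ivl. All lay between positions 90511034 and 93564643 of chromosome 3 in GRCm38. A further 3 genes with matching names were annotated as pseudogenes (S100a11-ps, Sprr2c-ps and Sprr2g) and were not counted, while Sprr2j-ps was annotated as coding and was kept.

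RNA was sequenced from the rostral whisker pad of 9 mice, 3 at each of days 1, 3 and 7 after surgery, with 1 biopsy from each side of the face. On the right side the facial nerve was cut at its buccal and superior marginal branches, which carry motor fibers to the whisker pad (the denervated side). The left side had a sham operation in which the skin was opened and closed over an intact nerve (the sham side). Each punch held skin and muscle with trimmed fur. The mice were adults of both sexes, and their strain and genotype are not given in the sample labels; the study bred reporter lines for its other experiments, and the line of these 9 mice is not given in the sources used here. Every lesion was on the right, so an effect of the lesion and a difference between right and left cannot be told apart, and no mouse was left without surgery.

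Proteins of this complex build the cornified envelope, the cross-linked shell that replaces the plasma membrane of dying keratinocytes. Loricrin, involucrin, the LCE proteins and the SPRR proteins are joined there by transglutaminases, while filaggrin bundles keratin filaments and trichohyalin hardens the inner root sheath of the hair. The S100A proteins are small calcium-binding proteins, and several of them are made in muscle, connective tissue or leukocytes as well as in epidermis. The whisker pad holds hairy skin, large whisker follicles and striated muscle, and it borders the lining epithelium of the lip and mouth.

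Values are TPM (the number of transcripts of a gene among a fixed number of transcripts, with transcript length already taken into account), summed over the transcripts of each gene. The authors scaled them further between libraries, so the libraries no longer have equal sums. In every list of 3 values below, the order is mouse 1, mouse 2 and mouse 3 of that day. The spacing of the lowest values put the depth of the libraries at about 10300000 to 32300000 assigned reads (median 14200000). The 57 genes together took 0.74% to 1.52% of all TPM. The epidermal label held in all 18 libraries, in which the suprabasal partner genes (Krt1, Krt10, Krtdap and 11 others) summed to 4284 to 12301 TPM. In bulk tissue, fewer cells of a type and less RNA per cell cannot be told apart.

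The biopsies were not equal in RNA of tissue marker genes. Krt13, a keratin of the lining epithelium of mouth and esophagus and no member of the complex, measured 1064 and 2159 TPM in denervated mice 2 and 3 of day 1. It also measured 2201 TPM in sham mouse 3 of day 3, 937 TPM in sham mouse 2 of day 7 and 112 TPM in sham mouse 3 of day 1, against 0.17 to 9.15 TPM in the other 13 libraries. Its partner Krt4 reached 18.9 to 1488 TPM in those 5 libraries and at most 4.00 TPM in the other 13. Muscle RNA was low in both biopsies of mouse 1 of day 1, at 3014 TPM (sham) and 4389 TPM (denervated) summed over 8 muscle genes. The other 16 libraries held 9164 to 19516 TPM. The part of these marker differences in the results below was not tested. Counts of changed members are therefore also given without the 4 libraries with Krt13 above 500 TPM, a choice made after the data were seen.

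Of the 57 members, 42 reached 1 TPM in all 18 libraries. The most abundant were S100A genes, which made up 56.8% of the members' TPM, followed by the LCE genes with 26.1%, the SPRR genes with 7.40%, the fused-type genes with 5.68% and Lor and Ivl with 4.00%. S100a2, S100a5 and Sprr2k stayed below 2 TPM in every library. In the plot of all members by library, the LCE1 block and Lor were bright in the same libraries, while the LCE3 and SPRR2 blocks were bright in only a few biopsies.

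**Figure D1:**
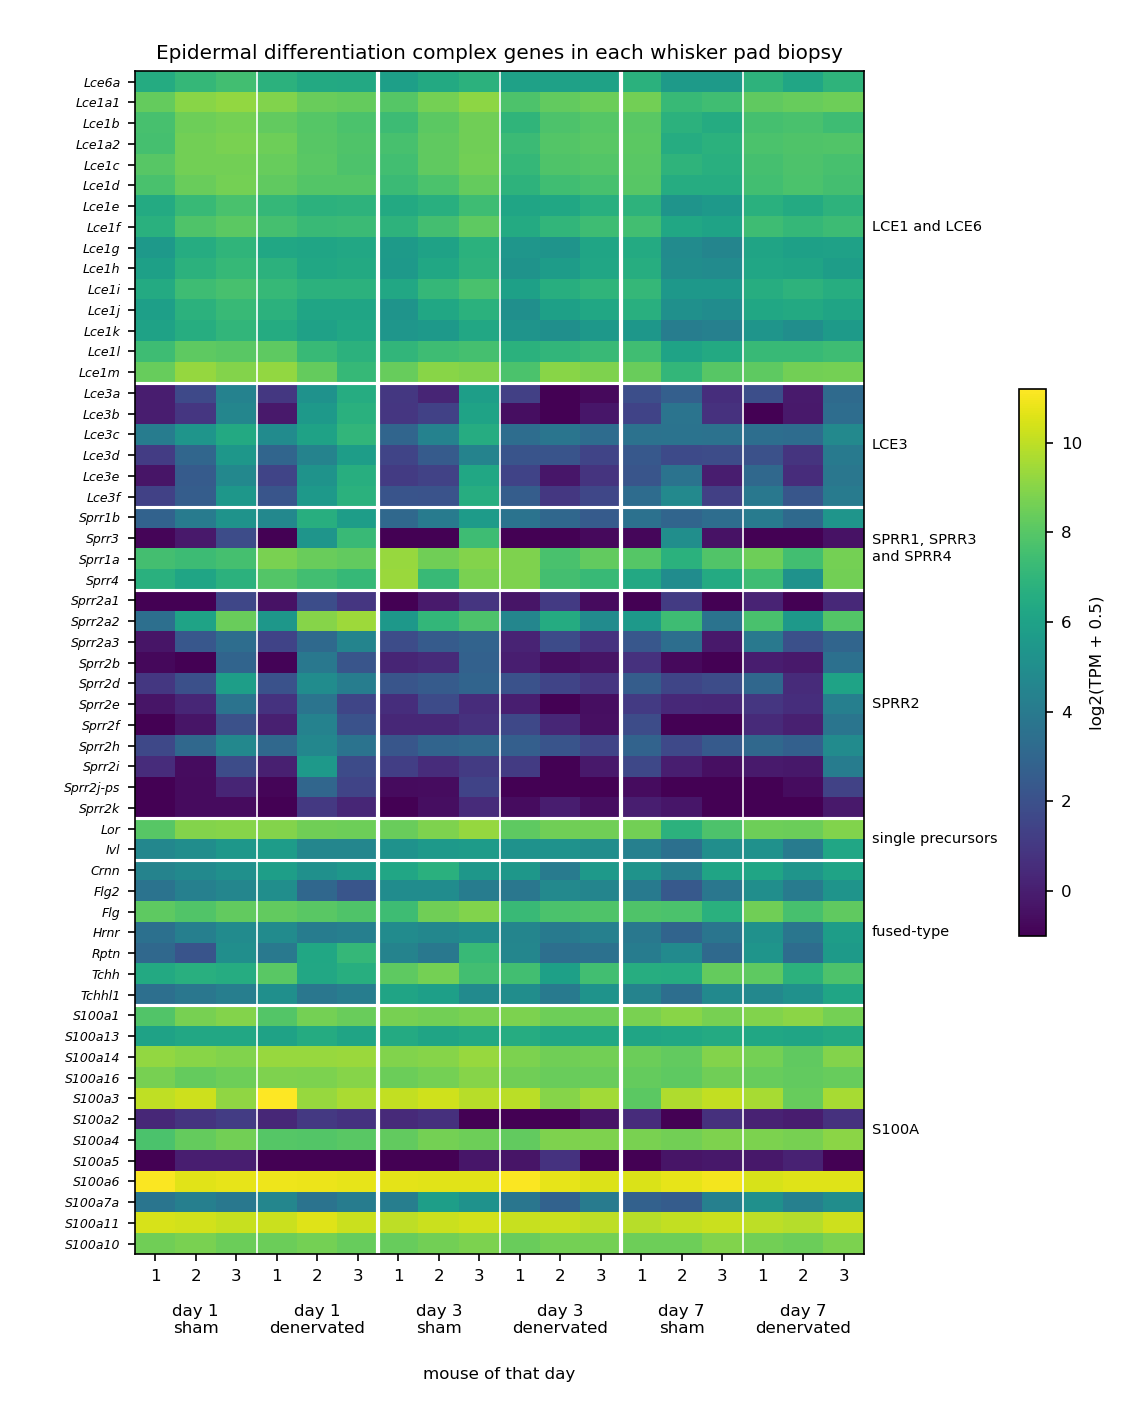
Heat map of log2(TPM + 0.5) for the 57 members (rows, by family) in the 18 libraries (columns, by day, side and mouse). The LCE1 genes and Lce6a were bright throughout, from 1095 to 4386 TPM in sum, whereas LCE3 genes summed to 15.99 to 591 TPM and were brightest in denervated mouse 3 of day 1.

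The SPRR genes encode short proline-rich proteins that cross-link other envelope proteins, and several are raised in stressed or wounded epithelium. Sprr1a, which is also known as a gene induced in injured neurons, was the most abundant. Sprr1a measured 185, 165 and 194 TPM at day 1, 635, 371 and 493 TPM at day 3 and 252, 111 and 239 TPM at day 7 on the sham side. Denervated-side Sprr1a measured 431, 335 and 309.9 TPM at day 1, 458, 209 and 303 TPM at day 3 and 361, 183 and 403 TPM at day 7. The sham and denervated libraries of day 1 did not overlap, and the highest level of all was in sham mouse 1 of day 3.

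Sprr4, another member expressed in skin, measured 106, 72.1 and 112 TPM at day 1, 647, 149.8 and 431 TPM at day 3 and 81.6, 30.1 and 88.5 TPM at day 7 on the sham side. Denervated-side Sprr4 measured 242, 179 and 144 TPM at day 1, 455, 185 and 149.95 TPM at day 3 and 169, 36.3 and 385 TPM at day 7. It shared with Sprr1a its highest library (sham mouse 1 of day 3) and its lowest (sham mouse 2 of day 7).

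Sprr2a2 stood for a set of near-identical copies. Of its 31-base words, the length the authors' quantifier uses by default, 2.20% occurred in no other gene, against 3.10% for Sprr2a1 and 26.4% for Sprr2a3, so that the values of single copies are uncertain. Words of Sprr2a2 occurred in 76 other genes, some of them outside the SPRR family, such as Gab3. The part of those genes in the Sprr2a2 values and the SPRR2 sums was not tested. Sprr2a2 measured 10.6, 66.5 and 341 TPM at day 1, 45.1, 134 and 220.2 TPM at day 3 and 48.7, 167 and 11.9 TPM at day 7 on the sham side. Denervated-side Sprr2a2 measured 43, 501 and 677 TPM at day 1, 23.7, 88.7 and 29.3 TPM at day 3 and 209, 46.3 and 247 TPM at day 7. The other SPRR2 genes were lower, and Sprr2d (67 TPM), Sprr2e (18.4 TPM) and Sprr2h (29.3 TPM) had their highest level in denervated mouse 3 of day 7. Those of Sprr2i (48 TPM), Sprr2f (20.6 TPM), Sprr2b (14 TPM), Sprr2j-ps (7.77 TPM), Sprr2a1 (3.14 TPM) and Sprr2k (1.51 TPM) were in denervated mouse 2 of day 1, and that of Sprr2a3 (21.9 TPM) in denervated mouse 3 of day 1. Both groups of copies thus peaked in different biopsies. The SPRR2 sum was 16.4, 84 and 461 TPM on the sham side and 59.8, 672 and 746 TPM on the denervated side at day 1. It was 74.6, 186 and 21.4 TPM and 244, 59.3 and 414 TPM at day 7, with the highest value of that day in denervated mouse 3. At day 3 it was 61.1, 158 and 257 TPM on the sham side and 39.7, 101 and 35.6 TPM on the denervated side. Summed over 6 neutrophil markers, nearly all of it S100a8 and S100a9, which stressed keratinocytes also make, the sham side held 25.5, 46 and 959.9 TPM at day 1, 349, 215 and 33.9 TPM at day 3 and 244, 43.9 and 111 TPM at day 7. The denervated-side sum was 96.9, 1989.7 and 1049.7 TPM at day 1, 1469, 1226 and 371 TPM at day 3 and 1652, 1356 and 2658 TPM at day 7. It was 1469 and 1226 TPM in denervated mice 1 and 2 of day 3, where the SPRR2 sum was 39.7 and 101 TPM, and 2 of the 5 libraries highest in Sprr2a2 were among the 5 highest in this sum. Retnlg, a more specific neutrophil gene, measured 2.39, 13.7 and 1.09 TPM at day 1, 34.5, 6.22 and 3.4 TPM at day 3 and 4.2, 0.181 and 10.1 TPM at day 7 on the denervated side. Its highest sham library was mouse 1 of day 3 (30.7 TPM). The part of these leukocyte markers in the SPRR2 levels was not tested.

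Sprr3, best known from the esophagus and oral lining, exceeded 1 TPM in only 5 of the 18 libraries, the 5 with Krt13 above 100 TPM. Sprr3 measured 40.8 and 154 TPM in denervated mice 2 and 3 of day 1, 169.7 TPM in sham mouse 3 of day 3, 32.1 TPM in sham mouse 2 of day 7 and 3.04 TPM in sham mouse 3 of day 1. In the other 13 libraries it was at most 0.40 TPM. Sprr1b, a squamous differentiation gene of skin and airway, measured 6.67, 16.5 and 37.5 TPM at day 1, 8.08, 16.5 and 51.9 TPM at day 3 and 11, 7.47 and 9.93 TPM at day 7 on the sham side. Denervated-side Sprr1b measured 24.9, 98.8 and 55.6 TPM at day 1, 12.2, 8.05 and 5.09 TPM at day 3 and 16.5, 8.4 and 40.6 TPM at day 7. Its 3 highest libraries were all among the 5 with Krt13 above 100 TPM, but sham mouse 2 of day 7, also one of the 5, held only 7.47 TPM.

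The stretches upstream of 5 SPRR genes are shown because these genes peaked in different biopsies: Sprr1a in sham mouse 1 of day 3, Sprr2d and Sprr2e in denervated mouse 3 of day 7, Sprr3 in sham mouse 3 of day 3 and Sprr1b in denervated mouse 2 of day 1. Each is the 250 bases before the annotated start (RefSeq, GRCm38.p6), written 5′ to 3′ along the gene, with capitals marking the AP-1 motif TGANTCA and the TATA motif TATAAA on either strand. Their positions are chr3:92485882-92486131 on the minus strand for Sprr1a, chr3:92438780-92439029 on the minus strand for Sprr1b, chr3:92458721-92458970 on the minus strand for Sprr3, chr3:92338890-92339139 on the plus strand for Sprr2d and chr3:92351893-92352142 on the plus strand for Sprr2e.
Sprr1a: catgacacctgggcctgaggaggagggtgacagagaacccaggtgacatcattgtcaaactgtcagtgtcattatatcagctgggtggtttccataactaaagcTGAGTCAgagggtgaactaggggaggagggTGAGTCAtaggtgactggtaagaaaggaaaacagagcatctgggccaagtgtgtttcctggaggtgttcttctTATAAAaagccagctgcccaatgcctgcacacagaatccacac
Sprr1b: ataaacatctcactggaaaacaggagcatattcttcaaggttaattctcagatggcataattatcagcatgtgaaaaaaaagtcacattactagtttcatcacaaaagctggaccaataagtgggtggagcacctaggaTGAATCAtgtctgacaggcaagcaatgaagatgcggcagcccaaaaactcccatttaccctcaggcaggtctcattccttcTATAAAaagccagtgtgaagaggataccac
Sprr3: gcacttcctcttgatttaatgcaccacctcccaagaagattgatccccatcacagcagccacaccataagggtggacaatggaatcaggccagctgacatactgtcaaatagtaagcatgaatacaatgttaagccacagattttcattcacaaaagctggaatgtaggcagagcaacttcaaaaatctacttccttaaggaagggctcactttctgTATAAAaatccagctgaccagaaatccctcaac
Sprr2d: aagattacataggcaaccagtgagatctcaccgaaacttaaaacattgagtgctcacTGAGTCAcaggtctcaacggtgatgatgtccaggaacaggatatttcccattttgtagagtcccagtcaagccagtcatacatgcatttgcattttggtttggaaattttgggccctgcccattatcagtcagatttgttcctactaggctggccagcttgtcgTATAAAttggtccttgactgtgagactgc
Sprr2e: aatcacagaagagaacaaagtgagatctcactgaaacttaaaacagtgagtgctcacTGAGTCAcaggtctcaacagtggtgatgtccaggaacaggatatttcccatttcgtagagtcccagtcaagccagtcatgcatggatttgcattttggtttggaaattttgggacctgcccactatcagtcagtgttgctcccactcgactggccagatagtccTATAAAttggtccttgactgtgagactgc

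AP-1 motifs began 146 and 116 bases before the start of Sprr1a and 111 bases before that of Sprr1b, while the window of Sprr3 held none. In Sprr2d and Sprr2e the motif began 193 bases before the start, and the windows were identical at 220 of 250 bases (88%). Sequences were found for 52 of the 57 members, of which 18 (34.6%) had the AP-1 motif in a window, against 2113 of 27025 genes (7.8%). The TATA motif was found in 22 of the 52 (42.3%), against 3872 of the 27025 genes (14.3%). Many of these windows are copies of one another, and a match of letters is a description, not evidence of binding.

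The late cornified envelope genes encode small cysteine-rich proteins that enter the envelope last. Lce1m, the most abundant, measured 325, 621 and 492 TPM at day 1, 327, 525 and 465 TPM at day 3 and 344, 134 and 261 TPM at day 7 on the sham side. Denervated-side Lce1m measured 585, 320.4 and 141 TPM at day 1, 216, 517 and 462 TPM at day 3 and 287, 382 and 399.99 TPM at day 7. Lce1a1 measured 317, 529.5 and 604 TPM at day 1, 255, 395 and 562 TPM at day 3 and 388, 150.4 and 176 TPM at day 7 on the sham side. Denervated-side Lce1a1 measured 467, 342 and 322 TPM at day 1, 218, 304 and 354 TPM at day 3 and 300.3, 325 and 358 TPM at day 7. Both were lowest in sham mouse 2 of day 7, and the highest library was sham mouse 2 of day 1 for Lce1m and sham mouse 3 of day 1 for Lce1a1. Lce1a2 measured 192, 392 and 432 TPM at day 1, 197, 294 and 379.8 TPM at day 3 and 281, 93.3 and 111 TPM at day 7 on the sham side. Denervated-side Lce1a2 measured 359.8, 258 and 227 TPM at day 1, 158, 244 and 269.6 TPM at day 3 and 213, 229 and 232 TPM at day 7.

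The LCE1 genes varied as a block. All 14 had their lowest library among sham mice 2 and 3 of day 7, and 9 of the 14 had their highest in sham mouse 3 of day 1, with a range of 3.71-fold to 7.45-fold between the lowest and highest library. Lor and Lce6a had their lowest library in the same pair. Between 41.2% and 99.1% of the 31-base words of an LCE1 gene were its own, and the part of shared sequence in this likeness was not tested. For Lor all of these words were its own. The other 10 LCE1 genes besides Lce1m, Lce1a1, Lce1a2 and Lce1k lay between 23 TPM (Lce1g) and 398 TPM (Lce1b), and Lce6a between 49.7 and 178 TPM.

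The LCE3 genes, which are low in resting skin and raised in disturbed barrier, varied widely between biopsies. Lce3b measured 0.477, 1.39 and 24.1 TPM at day 1, 1.42, 2.02 and 66.3 TPM at day 3 and 2.27, 12.3 and 1.15 TPM at day 7 on the sham side. Denervated-side Lce3b measured 0.392, 45.9 and 105 TPM at day 1, 0.195, 0 and 0.334 TPM at day 3 and 0, 0.403 and 9.8 TPM at day 7. The 5 libraries with Krt13 above 100 TPM held 12.3 to 105 TPM and the other 13 held 0 to 9.8 TPM, with no overlap. Lce3f did not overlap either, with 26.1 to 110 TPM against 1.44 to 16.1 TPM, whereas Lce3a, Lce3c, Lce3d and Lce3e overlapped between these 2 sets of libraries. The LCE3 sum of Krt13 library sham mouse 2 of day 7 (71.6 TPM) was below that of denervated mouse 3 of day 7 (90.2 TPM), where Krt13 was 2.22 TPM. In the plot of Krt13 beside members, Sprr3 separated the same 5 libraries from the 13 and Rptn did not.

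**Figure D2:**
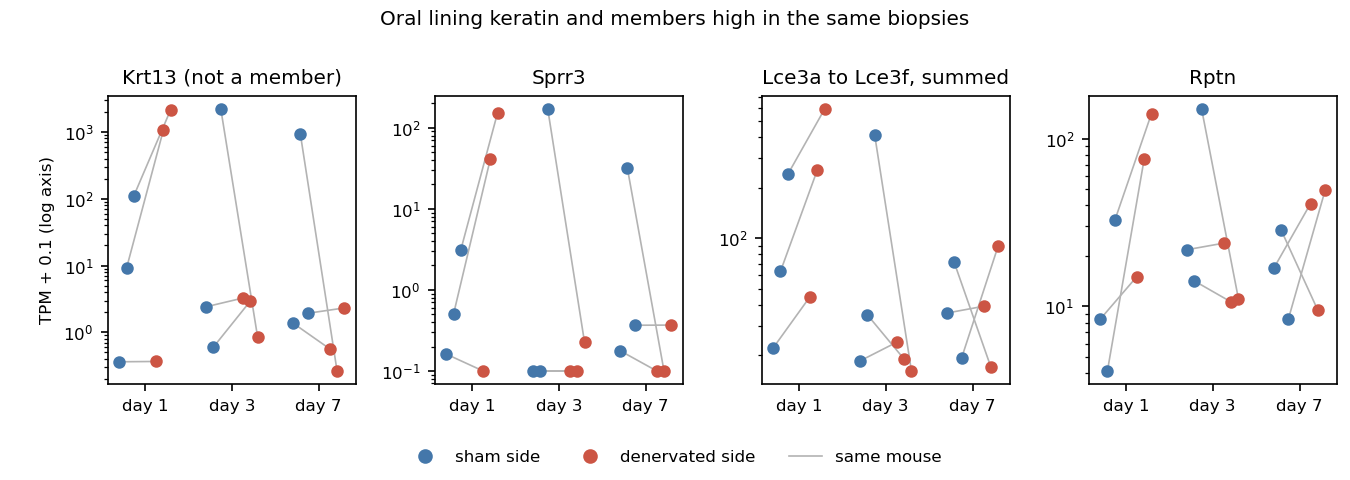
Krt13, Sprr3, the sum of the 6 LCE3 genes and Rptn as TPM + 0.1 on log axes, by day; points are biopsies, blue for the sham side and red for the denervated side, joined by mouse. The highest Krt13 points are denervated mice 2 and 3 at day 1, sham mouse 3 at day 3 and sham mouse 2 at day 7, with sham mouse 3 of day 1 next; the LCE3 sum ran from 71.6 to 591 TPM in the 5 high libraries and from 15.99 to 90.2 TPM in the other 13.

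The single precursors were loricrin, the bulk protein of the epidermal envelope, and involucrin, its early scaffold. Lor measured 258, 484 and 510.1 TPM at day 1, 334, 456 and 619 TPM at day 3 and 391, 115 and 224 TPM at day 7 on the sham side. Denervated-side Lor measured 484, 379 and 361 TPM at day 1, 286, 379.9 and 380.5 TPM at day 3 and 365, 351 and 466 TPM at day 7. Sham mouse 2 of day 7 was lowest and sham mouse 3 of day 3 highest. Ivl was less abundant, with a mean of 34.7 TPM over the 18 libraries against 380.2 TPM for Lor. Ivl measured 24.3, 30.7 and 43.1 TPM at day 1, 36.8, 45.8 and 51.1 TPM at day 3 and 19.6, 10.9 and 32.3 TPM at day 7 on the sham side. Denervated-side Ivl measured 52.6, 23.9 and 23.8 TPM at day 1, 36.6, 36.6 and 31.1 TPM at day 3 and 35.4, 16.2 and 73.3 TPM at day 7. Its highest library was denervated mouse 3 of day 7, and the sham libraries of day 3 all lay above the denervated ones.

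The fused-type genes join an S100-like calcium-binding start to a long repeat. Flg, the precursor of filaggrin, measured 285, 236 and 302 TPM at day 1, 168, 380.2 and 464 TPM at day 3 and 231, 217 and 107 TPM at day 7 on the sham side. Denervated-side Flg measured 307, 270.1 and 228 TPM at day 1, 155, 211 and 229 TPM at day 3 and 379.6, 202 and 294 TPM at day 7. At day 3 the 3 mice each had less Flg on the denervated side. Tchh, encoding trichohyalin of the inner root sheath, measured 85.6, 103 and 93.4 TPM at day 1, 285, 399 and 183 TPM at day 3 and 94.8, 93 and 317 TPM at day 7 on the sham side. Denervated-side Tchh measured 265, 80 and 99.7 TPM at day 1, 178, 59.7 and 178 TPM at day 3 and 291, 115 and 219 TPM at day 7. Crnn, encoding cornulin of squamous epithelium, measured 21.5, 27.4 and 34.2 TPM at day 1, 74.6, 105 and 43.9 TPM at day 3 and 38.4, 17.9 and 69.3 TPM at day 7 on the sham side. Denervated-side Crnn measured 57.3, 34 and 43.1 TPM at day 1, 43.3, 16.3 and 48 TPM at day 3 and 71, 40.4 and 67.5 TPM at day 7. Sham mouse 2 of day 3 was highest for Tchh and for Crnn.

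Tchh varied with the hair follicle keratins. The 5 libraries highest in Tchh were the 5 highest in the sum of 6 inner root sheath keratins (Krt25, Krt27, Krt28, Krt71, Krt72 and Krt73), and Tchh was 7.94% to 15.3% of that sum in every library while the sum itself ranged 6.85-fold. For Crnn 4 of the 5 highest libraries were shared with that sum, and for Tchhl1 it was 2 of 5. S100a3, a cysteine-rich S100 protein of the hair cuticle, shared 4 of its 5 highest libraries with the sum of 5 hair shaft keratins and ranged from 279.9 to 2343 TPM. The part of the follicle keratins in the members' differences between groups was not tested.

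**Figure D3:**
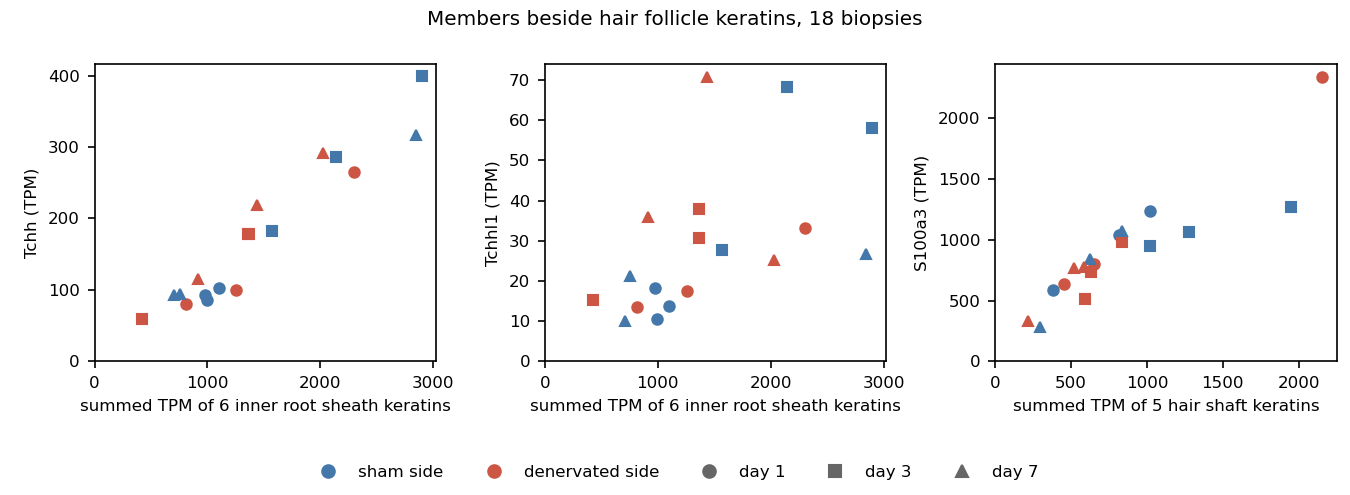
Tchh and Tchhl1 against the summed TPM of 6 inner root sheath keratins, and S100a3 against that of 5 hair shaft keratins, in 18 biopsies (color, side; symbol, day). Tchh ran from 59.7 to 399 TPM along the keratin sum, and the Tchhl1 points scattered more widely, with the top value of 70.9 TPM in denervated mouse 3 of day 7.

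The remaining fused-type genes were lower. Hrnr (hornerin) ranged from 7.03 to 55.6 TPM, Flg2 (filaggrin-2) from 4.08 to 39.1 TPM and Tchhl1 from 10.1 to 70.9 TPM. Rptn (repetin) ranged from 4.03 to 149.6 TPM, with its highest level in sham mouse 3 of day 3. Denervated-side Rptn measured 14.9, 75.3 and 141 TPM at day 1, 23.7, 10.5 and 11 TPM at day 3 and 40.9, 9.38 and 49.4 TPM at day 7.

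The S100A genes, small calcium sensors, included the members that varied least. S100a6 (calcyclin), expressed in many epithelia and fibroblasts, measured 2198, 1607 and 1700.3 TPM at day 1, 1662, 1584 and 1605 TPM at day 3 and 1428, 1709.7 and 2009.6 TPM at day 7 on the sham side. Denervated-side S100a6 measured 1896, 1803 and 1737 TPM at day 1, 2258, 1738 and 1507 TPM at day 3 and 1405, 1535 and 1548 TPM at day 7. S100a11, a partner of annexins, measured 1392, 1319 and 1165 TPM at day 1, 1024, 1209.6 and 1323 TPM at day 3 and 952, 1084 and 1178 TPM at day 7 on the sham side. Denervated-side S100a11 measured 1199, 1535 and 1197 TPM at day 1, 1158, 1197 and 1004 TPM at day 3 and 1004, 923 and 1215 TPM at day 7. For S100a11 51.1% of the 31-base words were its own, the rest being shared with pseudogenes. Of the 10 S100A genes above 2 TPM, 5 varied by less than 2-fold over the 18 libraries, and S100a7a varied most (10.5-fold). S100a3 measured 1041, 1241 and 585 TPM at day 1, 1065, 1271 and 949.6 TPM at day 3 and 279.9, 843 and 1075 TPM at day 7 on the sham side. Denervated-side S100a3 measured 2343, 636 and 801 TPM at day 1, 981, 510.1 and 733 TPM at day 3 and 772, 331 and 776 TPM at day 7. S100a1, a calcium sensor of striated muscle, was lowest in both biopsies of mouse 1 of day 1 at 236 and 244 TPM, the 2 biopsies low in muscle RNA. Over the 18 libraries it ranged 2.28-fold against 6.48-fold for the sum of 8 muscle genes. It shared 3 of its 5 highest libraries with that sum. S100a13, an S100 protein tied to growth factor release, ranged from 64 to 92.1 TPM, and S100a10, a partner of annexin A2, from 325 to 472 TPM.

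The denervated and sham sides were compared at each day and over all days by limma on log2(TPM + 0.5), with p adjusted by Benjamini-Hochberg over all genes tested. No member passed an adjusted p of 0.05 between the sides in any of the 4 comparisons. Over all days 0 of 48 members tested were called (0 at an unadjusted p under 0.05), where 457 of 14757 genes were (3.1%). The number called at day 1 was 0 of 54 (4 at an unadjusted p under 0.05), as for all 14776 genes (0%, with 634 at an unadjusted p under 0.05). At day 3 the count was 0 of 48 (6 unadjusted), where 217 of 14943 genes were called (1.45%), and at day 7 it was 0 of 48 (4 unadjusted), where 230 of 15081 were called (1.53%). Shares of all genes, here and below, count calls at the adjusted p. The members' unadjusted counts cannot be set against those shares. The 4 counts were also 0 without the 4 libraries with Krt13 above 500 TPM, where 1.03% (all days), 0% (day 1), 0.494% (day 3) and 0.491% (day 7) of all genes were called. Members absent from a test had under 1 TPM in most of its libraries, and Sprr3, S100a2, S100a5, Sprr2a1, Sprr2b, Sprr2f, Sprr2i, Sprr2j-ps and Sprr2k were not tested over all days.

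Over all days 26 of 48 members had a higher estimate on the denervated side (median log2 difference 0.02), against 51.8% of all genes, and at day 1 it was 31 of 54 (median 0.17), against 51.6%. At day 3 the denervated side had the lower estimate for 45 of 48 members (median log2 difference -0.52), while 47.3% of all genes had a higher one. These 45 included all 21 LCE genes (median -0.47), all 8 SPRR genes tested (median -1.01), all 7 fused-type genes (median -0.86), and Lor and Ivl. Of them, Lce3b reached 1 TPM at day 3 only on the sham side, and Lce3a and Sprr2i only in sham mice 1 and 3 and denervated mouse 1. These genes passed the expression filter mostly through the sham side, so their lower estimates were partly set by that filter. Without the 4 Krt13 libraries, of which sham mouse 3 belongs to day 3, 40 of 45 members were lower with a median of -0.23, and the LCE3 median went from -2.09 (6 genes) to -0.33 (the 4 still tested). With all libraries, skin genes outside the complex were also lower at day 3. These were 13 of 13 envelope enzymes such as Tgm1 (median -0.40) and 14 of 14 suprabasal partners (median -0.38). Inner root sheath keratins were lower for 6 of 6 (median -1.14) and hair shaft keratins for 5 of 5 (median -0.99). Basal epidermal markers were lower for 5 of 6 and neutrophil markers for 1 of 5.

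At day 7 the estimates lay the other way, with 40 of 48 members higher on the denervated side (median 0.65) against 56.1% of all genes. All 8 SPRR genes tested (median 1.19), all 15 LCE1 and LCE6 genes (median 0.65) and all 7 fused-type genes (median 0.73) were higher, while 6 of 10 S100A genes were lower (median -0.02). Of the SPRR genes, Sprr2e reached 1 TPM at day 7 in each denervated library but on the sham side only in mouse 1. Its higher estimate was thus partly set by the expression filter. Without the Krt13 library of that day 41 of 48 were higher, with a median of 0.39. With all libraries of day 7, 11 of 13 envelope enzymes (median 0.55) and 13 of 14 suprabasal partners (median 0.50) were higher as well. Inner root sheath keratins were higher for 4 of 6, basal epidermal markers for 2 of 6 and hair shaft keratins for 1 of 5. Lists from outside the epidermis were higher too: neutrophil markers for 5 of 5 (median 1.19), macrophage markers for 5 of 6 (median 0.695), fibroblast markers for 6 of 6 (median 0.453) and muscle markers for 6 of 8 (median 0.381). Endothelial and Schwann cell markers were higher for 2 of 4 each. At day 1 the SPRR estimates were higher for 13 of 13 genes (median 1.25) and the LCE3 estimates for 6 of 6 (median 1.96), but those of LCE1 and LCE6 were lower for 15 of 15 (median -0.26). Of these SPRR genes, Sprr3, Sprr2a1, Sprr2b, Sprr2f and Sprr2i reached 1 TPM at day 1 only in denervated mice 2 and 3 and sham mouse 3. Sprr2e reached it in each denervated library and in sham mouse 3 only. They passed the expression filter mostly through the denervated side, so their higher estimates were partly set by that filter. Without the 2 Krt13 libraries of the day 1 denervated side, which leave 1 library there, the LCE3 median was -0.84 and the SPRR2 median -0.41, and that of LCE1 and LCE6 0.01. These set the 1 remaining denervated library, of mouse 1, against 3 sham libraries, whereas within mouse 1 the denervated side was higher in LCE3 (44.5 against 21.96 TPM) and in SPRR2 (59.8 against 16.4 TPM). Without the fifth Krt13 library of that day as well, the medians were 0.27 for LCE3, 0.62 for SPRR2 and 0.27 for LCE1 and LCE6. With all libraries of day 1, 13 of 14 suprabasal partners, 9 of 13 envelope enzymes, 6 of 6 inner root sheath keratins and 4 of 4 wound keratins were higher on the denervated side. Basal epidermal markers were higher for 3 of 6 and macrophage markers for 0 of 6. Scaling to equal basal epidermal markers turned the S100A median at day 3 to 0.09 and at day 7 to 0.05 and moved the median of all genes at day 3 from -0.01 to 0.14. It left 42 of 48 members lower at day 3 and 45 of 48 higher at day 7. Genes of a family share reads and tissue and are not independent, so these counts are descriptions of the biopsies.

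**Figure D4:**
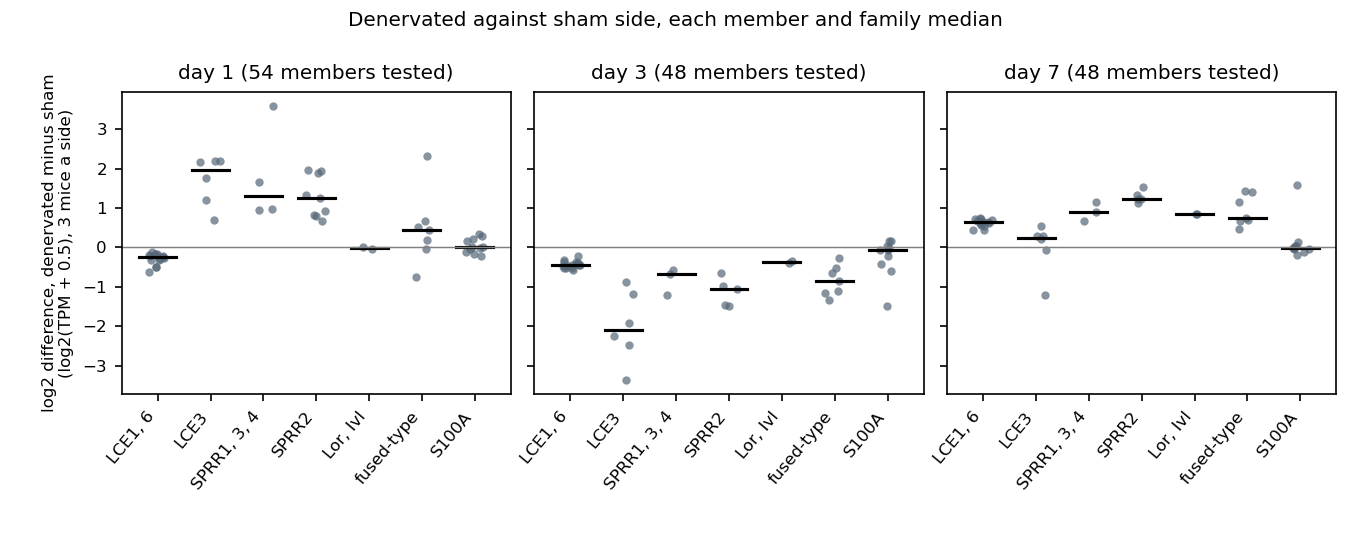
Log2 difference between denervated and sham side for each member tested (points) and family medians (bars) at days 1, 3 and 7, from fits to 3 mice a side. The LCE3 medians were 1.96, -2.09 and 0.24 in the order of the days, and the S100A medians lay between -0.08 and 0.01.

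Among single genes, Sprr1a came closest to a call at day 1. It was higher on the denervated side in 3 of 3 mice, by 0.97 ± 0.16 on the log2 scale (estimate ± SE, adjusted p = 0.426). At day 3 the log2 difference was -0.67 ± 0.32 (adjusted p = 0.411) with 3 of 3 mice lower, and at day 7 it was 0.66 ± 0.41 (adjusted p = 0.591) with 3 of 3 higher. When the mouse was added as a block, which the 2 biopsies of each mouse allow, Sprr1a was called at day 7 (adjusted p = 0.0422). The blocked fit also called Flg2 at day 7 (adjusted p = 0.019), which makes 2 of 48 members where 328 of 15081 genes were called (2.17%). Without the Krt13 library of day 7 (sham mouse 2), the unblocked log2 difference of Sprr1a was 0.28 (adjusted p = 0.946) and that of Flg2 0.89 (adjusted p = 0.657). That fit kept denervated mouse 2 without its sham side, so it cannot be set against the blocked calls. Within mice 1 and 3 of day 7 the denervated side was higher in Sprr1a (361 against 252 TPM and 403 against 239 TPM). It was also higher there in Flg2 (32.2 against 15.4 TPM and 39.1 against 13.6 TPM).

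Flg2, a filaggrin-like barrier protein, measured 12, 19.4 and 24.1 TPM at day 1, 29.5, 30.2 and 17 TPM at day 3 and 15.4, 4.77 and 13.6 TPM at day 7 on the sham side. Denervated-side Flg2 measured 32.2, 7.95 and 4.08 TPM at day 1, 14, 26.1 and 22.8 TPM at day 3 and 32.2, 16.2 and 39.1 TPM at day 7. The sides did not overlap at day 7, with a log2 difference of 1.40 ± 0.49 (adjusted p = 0.321 without the block). S100a7a, the mouse relative of psoriasin, measured 12.8, 18.9 and 14.2 TPM at day 1, 17.9, 55.9 and 37 TPM at day 3 and 6.35, 5.34 and 19.5 TPM at day 7 on the sham side. Denervated-side S100a7a measured 23.9, 12 and 16.7 TPM at day 1, 13.4, 6.7 and 16.6 TPM at day 3 and 34.1, 19.5 and 30.7 TPM at day 7. It was lower on the denervated side in 3 of 3 mice of day 3, with a log2 difference of -1.50 (adjusted p = 0.225), and higher in 3 of 3 of day 7, with 1.59 (adjusted p = 0.237), without overlap at either day. Hrnr had log2 differences of -0.52 at day 3 (adjusted p = 0.23) and 1.42 at day 7 (adjusted p = 0.344). None of these passed the threshold without the block.

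**Figure D5:**
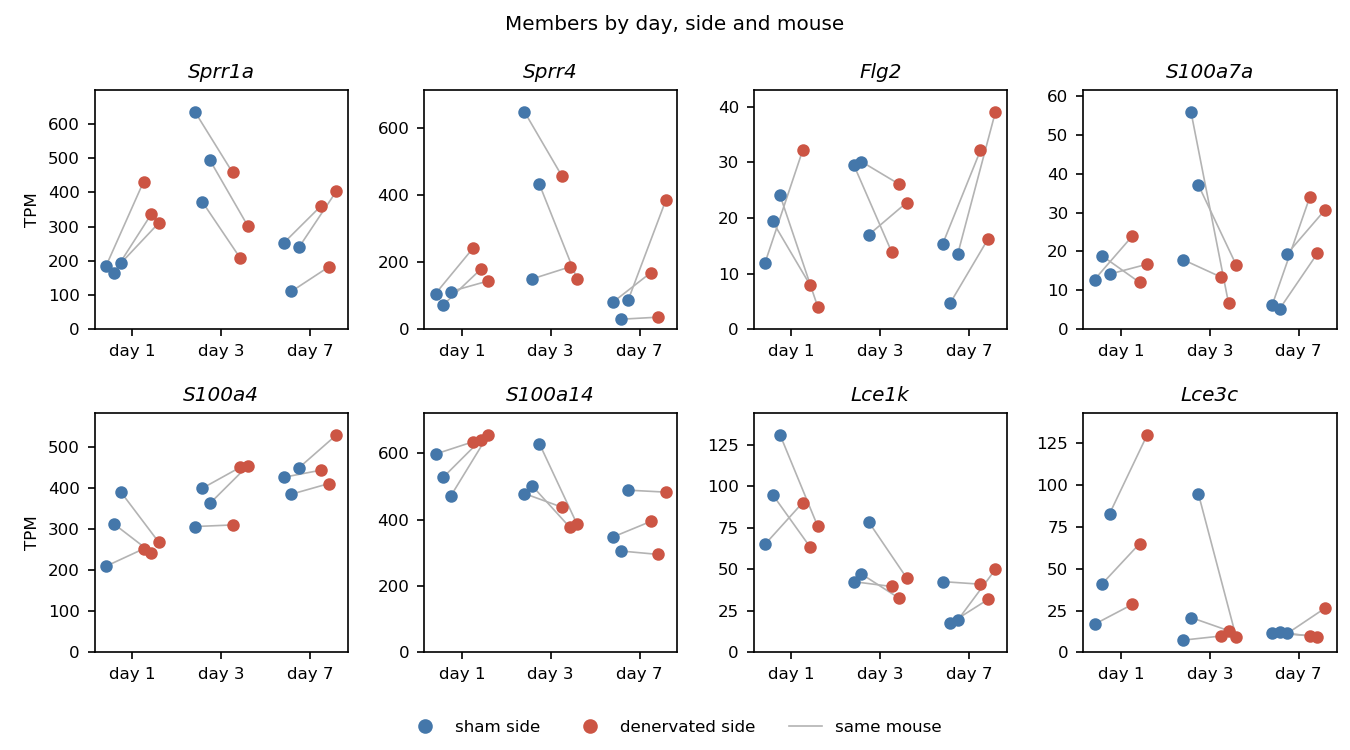
TPM of 8 members by day; blue points are sham sides, red points denervated sides, and gray lines join the sides of a mouse. The denervated point of Sprr1a lay above its sham point in 3 of 3 mice at day 1, in 0 of 3 at day 3 and in 3 of 3 at day 7, and the denervated points of S100a4 lay at 244 to 269 TPM at day 1 and at 412 to 530 TPM at day 7.

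Whether the effect of denervation differed between days was tested directly by limma. No member was called for day 3 against day 1 (0 of 48, 8 at an unadjusted p under 0.05), where 18 of 14757 genes were (0.122%). None was called for day 7 against day 1 (0 of 48, 4 unadjusted), where 24 genes were (0.163%), or for day 7 against day 3 (0 of 48, 10 unadjusted), where no gene was (0%, with 1013 of 14757 at an unadjusted p under 0.05). The effect was more positive at day 7 than at day 3 for 44 of 48 members, by a median of 1.22, against 55.4% of all genes. S100a7a had the smallest adjusted p there (0.405), with a difference of 3.09 ± 0.68. With the mouse as block, Sprr1a alone among the members was called for day 3 against day 1 (difference -1.64, adjusted p = 0.0117), where 68 of 14757 genes were (0.461%).

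Along the denervated side, changes with time did pass the test. Between day 1 and day 3, 6 of 47 members were called, where 1702 of 14701 genes were (11.6%). S100a4 rose, while S100a14, S100a16, Lce1k, Lce3c and Sprr1b fell. Between day 1 and day 7, 5 of 47 were called, where 3125 of 14701 genes were (21.3%). Those were S100a4, which rose, and S100a14, S100a16, Lce1k and Lce3c, which fell. The first share was close to that of all genes and the second below it. No member was called between days 3 and 7 (0 of 47, 5 at an unadjusted p under 0.05), where 31 genes were (0.211%).

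S100a4, a protein of fibroblasts, macrophages and other motile cells, measured 210.3, 314 and 390.3 TPM at day 1, 307, 400.2 and 363 TPM at day 3 and 427, 386 and 449.7 TPM at day 7 on the sham side. Denervated-side S100a4 measured 253, 244 and 269 TPM at day 1, 311, 451 and 454 TPM at day 3 and 444, 412 and 530.1 TPM at day 7. The denervated libraries of day 7 lay above those of day 1 without overlap, with a rise of 0.85 ± 0.17 on the log2 scale (adjusted p = 0.0101), and the rise at day 3 was 0.65 ± 0.17 (adjusted p = 0.0416). In the same comparison of day 7 with day 1, 21.3% of all genes were called, in either direction. Called higher were 5 of 6 macrophage markers, 1 of 6 fibroblast markers, 3 of 4 endothelial markers and 7 of 8 muscle markers. The part of these cell types in the rise of S100a4 was not tested. Of the 31-base words of S100a4, 50.8% were its own, and the rest are shared with the overlapping model Gm42674. Sham-side S100a4 had an estimate of 0.51 between days 1 and 7 (adjusted p = 0.343).

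S100a14, an S100 protein of epithelia, measured 597, 527 and 469.9 TPM at day 1, 478, 502 and 628 TPM at day 3 and 348, 305 and 488 TPM at day 7 on the sham side. Denervated-side S100a14 measured 634, 639.5 and 655 TPM at day 1, 437, 378 and 386 TPM at day 3 and 395, 295 and 483 TPM at day 7. Its log2 changes from day 1 were -0.69 ± 0.17 to day 3 (adjusted p = 0.0362) and -0.75 ± 0.17 to day 7 (adjusted p = 0.0172), and day 1 did not overlap with either later day. S100a16, widely expressed and also epithelial, measured 419, 315 and 364 TPM at day 1, 348, 394 and 498 TPM at day 3 and 319, 288 and 377 TPM at day 7 on the sham side. Denervated-side S100a16 measured 453, 439 and 499.97 TPM at day 1, 369, 340.5 and 339 TPM at day 3 and 332, 302 and 325 TPM at day 7. Its log2 changes were -0.41 ± 0.10 at day 3 (adjusted p = 0.0336) and -0.53 ± 0.10 at day 7 (adjusted p = 0.0078), also without overlap with day 1.

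Lce1k was the only one of the 14 LCE1 genes called in these comparisons. Lce1k measured 65.1, 95 and 131 TPM at day 1, 42.6, 47.2 and 78.3 TPM at day 3 and 42.6, 17.6 and 19.6 TPM at day 7 on the sham side. Denervated-side Lce1k measured 90.1, 63.4 and 76 TPM at day 1, 39.7, 32.7 and 44.9 TPM at day 3 and 41.1, 31.9 and 50 TPM at day 7. The log2 change was -0.96 ± 0.20 at day 3 (adjusted p = 0.0196) and -0.90 ± 0.20 at day 7 (adjusted p = 0.0152). Lce3c measured 16.9, 41 and 83 TPM at day 1, 7.42, 20.9 and 94.7 TPM at day 3 and 11.8, 12 and 11.4 TPM at day 7 on the sham side. Denervated-side Lce3c measured 28.7, 65.1 and 130.1 TPM at day 1, 9.85, 13 and 9.35 TPM at day 3 and 10, 9.32 and 26.5 TPM at day 7. Its log2 changes were -2.50 ± 0.55 at day 3 (adjusted p = 0.0236) and -2.16 ± 0.55 at day 7 (adjusted p = 0.0256). The level of Sprr1b changed by -2.62 ± 0.63 to day 3 (adjusted p = 0.0336), and its change to day 7 was -1.50 (adjusted p = 0.124).

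These calls depended on which mice of days 1, 3 and 7 were included, and a lone library was taken to vary like the other groups. Without the 4 Krt13 libraries, which leave only mouse 1 on the denervated side of day 1, 1 of 47 members was called at day 3 (Lce1l, -1.13, adjusted p = 0.0397), where 3.01% of all genes were. At day 7 it was 0 of 47 (7 at an unadjusted p under 0.05), where 6.29% were. Lce3c then changed by -1.39 at day 3 (adjusted p = 0.228) and Sprr1b by -1.59 (adjusted p = 0.335), while the change of S100a4 was 0.66 (adjusted p = 0.228) and that of S100a14 -0.67 (adjusted p = 0.231). Leaving out mouse 3 of day 1 or mouse 2 of day 3 took the count at day 3 from 6 to 0, mouse 2 of day 1 took it to 1, mouse 1 of day 7 to 2 and mouse 3 of day 3 to 3, and leaving out mouse 1 of day 1 took it to 10. At day 7 the count went from 5 to 2 without mouse 3 of day 1 or mouse 1 of day 7 and to 9 without mouse 1 of day 1.

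Scaling to the epidermis changed which members were called. With libraries scaled to equal basal epidermal markers (Krt5, Krt14 and 4 others), the median of all genes in the denervated comparison of day 7 with day 1 was 0.44, and the median of the members went from -0.25 to 0.19. The calls then were 6 higher and 1 lower of 48 members, where 41.8% of all genes were called, against 1 higher and 4 lower without this scaling. The higher ones were S100a4, S100a1, S100a10, S100a7a, Flg2 and Tchhl1, with changes of 0.58 (S100a10) to 1.80 (Flg2), and the lower one was Lce3c. Over all genes the calls went from 2000 higher and 1125 lower to 5992 higher and 133 lower. For day 3 against day 1 the members' calls were 1 higher (S100a4) and 2 lower (Lce3c and Sprr1b) under this scaling, against 1 higher and 5 lower, with 16.1% of all genes called and a median of all genes of 0.26. For day 7 against day 1 under this scaling, S100a14 changed by -0.30 (adjusted p = 0.323) and S100a16 by -0.09 (adjusted p = 0.697), while the change of S100a4 was 1.29 (adjusted p = 0.00129) and that of Lce3c -1.73 (adjusted p = 0.036). The basal marker Krt14 itself changed by -0.99 ± 0.22 (adjusted p = 0.0152) in the unscaled comparison.

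On the sham side no member was called by limma at any interval. Between days 1 and 3 the count was 0 of 47 (5 at an unadjusted p under 0.05), where 12 of 14671 genes were called (0.0818%). Between days 1 and 7 it was 0 of 47 (12 unadjusted), where 1 gene was (0.00682%), and between days 3 and 7 it was 0 of 47 (11 unadjusted), where 2 genes were (0.0136%). These shares of all genes are at the adjusted p, so the members' unadjusted counts cannot be set against them. The LCE1 and LCE6 genes had lower estimates at day 7 than at day 1 for 15 of 15 (median -1.13), and Lce1k had the smallest adjusted p (0.166) with a change of -1.91 ± 0.39. Without the 4 Krt13 libraries the LCE1 and LCE6 median was -0.86, again with 15 of 15 lower. Sprr1a and Sprr4 had higher estimates at day 3 than at day 1, by 1.43 ± 0.32 (adjusted p = 0.221) and 1.86 ± 0.57 (adjusted p = 0.304), and Tchhl1 by 1.75 ± 0.42 (adjusted p = 0.231). Without the 5 libraries with Krt13 above 100 TPM, Tchhl1 was called in that comparison (2.33, adjusted p = 0.0436), as 1 of 49 members where 0.093% of all genes were.

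Genes that act with the complex were taken from lists of envelope enzymes, suprabasal partners and regulators of differentiation. Of 13 envelope enzymes, none was called between the sides at any day or over all days, and 3 fell on the denervated side between days 1 and 3 and between days 1 and 7. Those were Tgm1 (-0.92 and -0.71) and Tgm3 (-2.48 and -2.09), the transglutaminases that cross-link the envelope, and the lipoxygenase Aloxe3 (-0.76 and -0.64). Tgm3 measured 45.8, 54.4 and 104 TPM on the denervated side of day 1 and 106 TPM in sham mouse 3 of day 3, and its levels overlapped between the 5 Krt13 libraries (21.2 to 106 TPM) and the other 13 (9.79 to 45.8 TPM). Of 14 suprabasal partners 1 was called at day 3, the desmosomal cadherin Dsc1, which was lower on the denervated side, with a log2 difference of -0.91 ± 0.11 (adjusted p = 0.0173). On that side 2 of the 14 fell between days 1 and 3 (Evpl and Cnfn) and 4 of the 14 between days 1 and 7 (Evpl, Cnfn, Cst6 and Calml3). Over all genes 1.45% were called between the sides at day 3. Along the denervated side it was 11.6% between days 1 and 3 and 21.3% between days 1 and 7, in either direction.

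Among 15 regulators, Nfe2l2, encoding the stress-response factor NRF2, and the AP-1 subunit Fosl1 were higher on the denervated side over all days, by 0.36 ± 0.09 (adjusted p = 0.0305) and 0.82 ± 0.21 (adjusted p = 0.0476). Fosl1 was near the floor, at 0.788 to 6.97 TPM, and its adjusted p lay just under the threshold. On the denervated side Zfp750, Ovol1, Tfap2a and Maf fell between days 1 and 3, and these with Cebpb fell between days 1 and 7. Basal epidermal markers fell in 2 of 6 (Krt14 and Itga6) and wound keratins in 2 of 4 (Krt6a and Krt17) between days 1 and 7 on that side, as did 1 of 6 inner root sheath keratins (Krt73) and 1 of 4 sebaceous markers (Awat1). Over all days S100a8, a gene of neutrophils and stressed keratinocytes which neighbors the members on chromosome 3, was higher on the denervated side by 3.62 ± 0.67 (adjusted p = 0.00582), as the only one of 5 neutrophil markers tested. Hair shaft keratins had 0 of 5 called between days 1 and 7 on the denervated side, and Schwann cell markers had 1 of 4 called higher there. Over all genes 3.1% were called between the sides over all days. Along the denervated side it was 11.6% between days 1 and 3 and 21.3% between days 1 and 7. The counts of these lists come from unscaled fits with all libraries, and none was made without the Krt13 libraries.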

How the data were processed

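Total RNA of 18 whisker pad biopsies was made into unstranded poly(A) libraries and sequenced. Per the labels and the study's methods, the authors removed duplicate reads, trimmed them, quantified transcripts with kallisto 0.43.1 on GRCm38 and exported TPM through sleuth; bcl2fastq 2.17.1.14 and these names stand in the submitters' processing notes. Removing duplicates can lower values of short, abundant transcripts. The deposited signal values are TPM further scaled between samples (column sums 833186 to 1143839). Values were summed to genes with a GENCODE annotation of GRCm38, which matched 111450 of 113194 transcripts (99.5% of the signal). Genes with at least 1 TPM in 47% of the libraries of a fit were tested by limma 3.58.1 (R 4.3.3, empirical Bayes with trend) on log2(TPM + 0.5), threshold 0.05. A check on simulated data came first. Fits used all 18 libraries (over all days and differences between days), 6 (1 day) or 9 (1 side). The sides of a mouse deviated together (r = 0.16 to 0.57 for the 9 pairs across genes), and sample titles pair them, so the mouse block was an alternative. Day 7 columns and titles number the mice differently; columns were matched by day, side and sequencing number, the day 7 mice are numbered here in accession order, and the sides of a mouse pair alike by both. Depth was estimated from values of transcripts over 2000 bases, of which 78% to 85.6% fell within 0.1 of a whole read. Members and gene lists were chosen with earlier results of these data known. Every member could be named, with all libraries given for the 3 most abundant of a family and for called members. Also run were other pseudocounts, filters, scalings and leaving out each mouse.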

Additional observations from a re-analysis of the deposited data

Results flagged for a closer look

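Sprr1a was set apart because its effect of denervation differed between days 3 and 1 when the mouse was a block, by -1.64 on the log2 scale (limma, adjusted p = 0.0117). All 3 mice of day 1 were higher on the denervated side and all 3 of day 3 lower. Sham-side Sprr1a measured 185, 165 and 194 TPM at day 1 and 635, 371 and 493 TPM at day 3. The denervated side held 431, 335 and 309.9 TPM at day 1 and 458, 209 and 303 TPM at day 3. Without the block the same difference had an adjusted p of 0.297, and the blocked fit, which called 1 of 48 members, called 0.461% of all genes.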

How the results depend on the processing

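Of 210 recomputed counts of called members, 193 stayed within 1.5 times the count reported. With the mouse as replicate block, which the 2 sides of a mouse allow, the count went from 0 to 2 at day 7 and from 0 to 1 for the difference between days 3 and 1, and no other count changed. No block could be used within a side. Without the 5 libraries with Krt13 above 100 TPM, 1 member (Tchhl1) was called on the sham side between days 1 and 3. No cause was tested for any of these changes. For the denervated side, day 3 against day 1, basal epidermal rescaling gave 3, leaving out 4 or 5 Krt13 libraries gave 1, and leaving out 1 mouse gave 0 to 10; for day 7 against day 1 the Krt13 libraries gave 0 and leaving out 1 mouse 2 to 9. Both pseudocounts, both filters and median-of-ratios scaling kept every count within 1.5 times. For members called, with or without the block, or with an unadjusted p under 0.05 between the sides, 380 recomputed differences kept their sign, while 70 lost and 3 gained a call. Other members gained calls too, among them Lce1l and Tchhl1 without Krt13 libraries and S100a1, S100a10, S100a7a, Flg2 and Tchhl1 under basal rescaling. Basal rescaling moved the mean family level of a group by over 1 SD in 6 of 30 cases. With 3 mice a group the error of every difference is itself poorly known, and copies with shared sequence (SPRR2, LCE1, LCE3) are further limited by how reads were divided among them.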
